A study of Mus musculus with 6 samples.

Results

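The 9 genes described here encode the steps that lie between the T cell receptor and the Ras and NF-kB pathways: Plcg1, Dgka, Dgkz, Rasgrp1, Sos1, Prkcq, Bcl10, Malt1 and Tagap. They were chosen by symbol, and each symbol matched 1 Ensembl identifier, so the set holds 9 of the 55487 genes in each file. All 9 passed the filter on low counts that left 12486 genes for testing. RNA sequencing of polyadenylated RNA was compared between naive CD4+ T cells of the gut-draining mesenteric lymph nodes (mLN) and of the spleen. Each organ gave 3 libraries, all from wild-type C57BL6/J mice without treatment, and the cells were used fresh. Age, the number of mice behind each library and the sorting gate are not given in the labels, so p-values measure the spread between libraries, which may be technical. Expected counts (RSEM's estimate of the reads from each gene) summed to between 13205499 and 20054205 in mLN libraries and between 14224966 and 17862485 in spleen libraries.

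When the T cell receptor is engaged, phospholipase C gamma cuts a membrane phospholipid into diacylglycerol and a soluble messenger that releases calcium. Diacylglycerol recruits the exchange factor RasGRP1, which loads Ras with GTP, and protein kinase C theta, which acts through a complex that holds BCL10 and MALT1 to activate the kinases of NF-kB. Diacylglycerol kinases end this signal by turning diacylglycerol into phosphatidic acid, and in T cells they are known to restrain activation. Naive T cells hold these proteins ready before they meet antigen.

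In mLN cells 3 of the 9 genes rose and 1 fell. Plcg1 was 1.42-fold, Dgkz 1.34-fold and Sos1 1.28-fold higher, and Tagap, which encodes a GTPase-activating protein of cytoskeletal GTPases, was at 0.694 of its spleen level. Dgka, Rasgrp1, Prkcq, Bcl10 and Malt1 did not pass the test, with log2 fold changes (mLN minus spleen throughout) between -0.09 and 0.09. The test was edgeR's quasi-likelihood test with Benjamini-Hochberg adjustment over all genes and a threshold of 0.05, and levels are given as CPM, the counts scaled by library total and TMM factor. Over all genes tested, 29.6% passed it, 16.1% as higher and 13.5% as lower in mLN, and the 4 of 9 called here are given as a description, since so large a part of all genes passed. On the deposited TPM values (a level per transcript length, with a fixed total per library), as log2(TPM + 1), 5 of the 9 were higher and 0 lower, beside 25.2% of all genes (22.1% higher and 3.08% lower), and the median of all genes was shifted by 0.21 on the log2 scale. Fold changes of TPM are therefore read against that shift. The 5 genes higher on TPM were Plcg1, Dgkz, Sos1, Dgka and Prkcq, of which Dgka and Prkcq did not pass on counts.

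**Figure D1:**
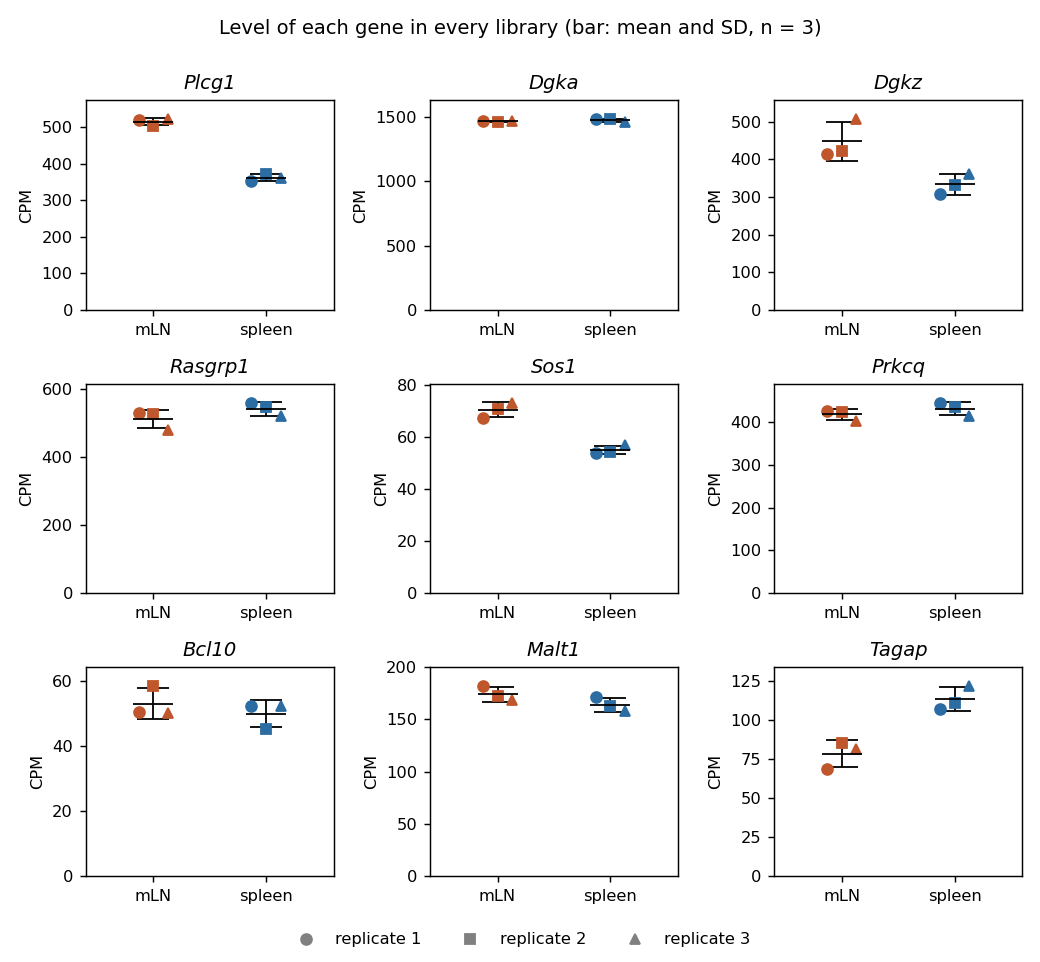
CPM (counts scaled by library total and TMM factor, axis from 0) of the 9 genes in each of 3 mLN and 3 spleen libraries, with the mean and SD of each organ. The libraries of Plcg1, Dgkz and Sos1 lie higher in mLN without overlap, those of Tagap lie lower, and those of the other 5 genes overlap.

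The cells carried the transcripts of naive CD4+ T cells. Cd4 was at 891 ± 12.4 CPM in mLN and 930 ± 45.1 CPM in spleen (SD, n = 3 each). The 13 naive CD4 T cell markers summed to 7862 to 8003 CPM in mLN libraries and 8646 to 8834 CPM in spleen libraries, and 4 of them rose and 6 fell. Signal of B cells and myeloid cells was lower in mLN. The summed level of 10 B cell markers ranged from 342 to 372 CPM in mLN libraries and from 500 to 534 CPM in spleen libraries, of which Ighm made up 339 ± 14.1 CPM in mLN and 487 ± 15.8 CPM in spleen. Ms4a1, which marks B cells, was at 1.71 ± 0.844 CPM in mLN and 5.84 ± 0.902 CPM in spleen. Sums were 3.30 to 4.81 CPM in mLN and 36.0 to 36.6 CPM in spleen for 10 monocyte and macrophage markers, and 0.150 to 1.14 CPM in mLN and 36.3 to 40.0 CPM in spleen for 8 neutrophil markers, of which Ly6g had no count in any library. The 8 dendritic cell markers summed to 6.05 to 7.18 CPM in mLN and 36.2 to 37.7 CPM in spleen. Most of this sum was H2-Aa, at 5.68 ± 0.509 CPM in mLN and 29.4 ± 2.67 CPM in spleen. Of the tested markers of B cells, monocytes and macrophages, neutrophils and dendritic cells, 6 of 10, 4 of 5, 6 of 6 and 3 of 4 fell in mLN and 0 rose. NK cell markers summed to 57 to 68.9 CPM in mLN and 44.2 to 50.3 CPM in spleen. Prf1, which other cytotoxic cells express too, made up 59.9 ± 5.95 CPM of this sum in mLN and 43.7 ± 2.92 CPM in spleen and rose, while Eomes, Gzma and Ncr1 averaged 1.23, 0.377 and 0.0165 CPM in mLN and 1.75, 0.963 and 0.626 CPM in spleen, with Eomes and Gzma not past the test and Ncr1 too low to be tested. CD8 T cell markers summed to 12.5 to 20.4 and 16.1 to 17.8 CPM in mLN and spleen (0 of 2 called), and regulatory and memory T cell markers to 46.3 to 49.2 and 52.0 to 57.1 CPM in mLN and spleen (1 of 6 fell). Erythroid markers stayed under 1 CPM in sum in every library. In bulk samples a smaller number of cells of a type and less RNA per cell cannot be told apart, and the part of this signal in the results below was not tested.

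Set side by side per transcript length, the 9 genes spanned a wide range of levels in both organs. Dgka was highest, at 821 ± 6.84 TPM in mLN and 686 ± 6.97 TPM in spleen (SD, n = 3 each), with higher values in genes amounting to 1.22% (mLN) and 1.29% (spleen) of the number tested. In mLN it was followed by Dgkz at 268 ± 15.0, Plcg1 at 227 ± 3.13, Prkcq at 192 ± 9.03, Rasgrp1 at 155 ± 10.2, Malt1 at 64.4 ± 3.53, Bcl10 at 47.2 ± 3.51, Tagap at 40.0 ± 4.41 and Sos1 at 13.3 ± 1.02 TPM, and no neighbours in this order overlapped across libraries. In spleen the order was Dgkz at 173 ± 14.3, Prkcq at 162 ± 6.64, Rasgrp1 at 139 ± 5.33, Plcg1 at 138 ± 6.60, Malt1 at 49.2 ± 7.41, Tagap at 48.0 ± 3.34, Bcl10 at 36.7 ± 4.31 and Sos1 at 8.51 ± 0.348 TPM. There Dgkz overlapped with Prkcq, Rasgrp1 with Plcg1, and Malt1 with Tagap. Plcg1 thus held rank 3 in mLN and rank 5 in spleen, and Tagap stood below Bcl10 in mLN and above it in spleen.

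**Figure D2:**
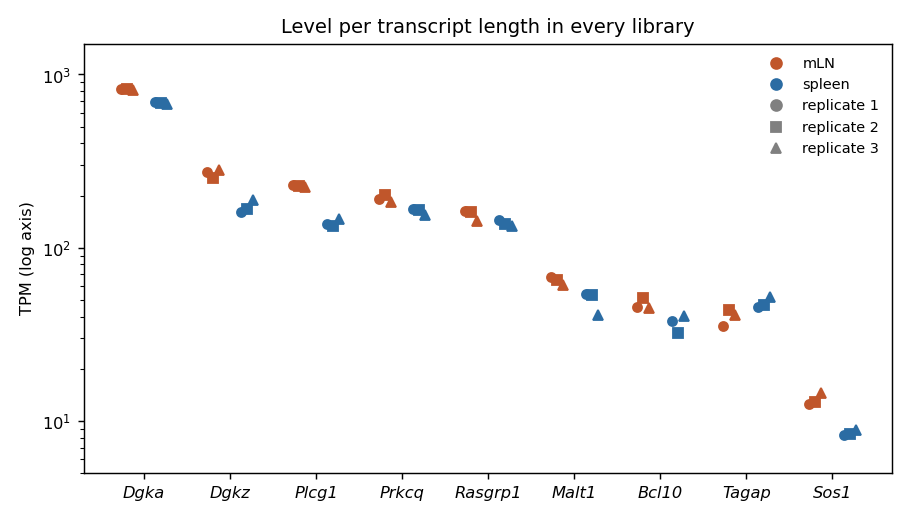
TPM on a log axis for the 9 genes, ordered by their mean in mLN, with each of the 3 mLN and 3 spleen libraries as a point. Dgka lies far above the rest in both organs and Sos1 lies lowest.

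The promoters of the 4 genes that differed are printed because 3 of them rose together and 1 went the other way. The sequences are RefSeq's for GRCm38.p6, the assembly named mm10, and run from 250 bases before to 50 bases after the start of transcription, given 5′ to 3′ on the gene's strand; Dgkz has 2 listed starts, of which the upstream one is shown, and 8 of the 9 genes matched an entry. Capitals mark matches on either strand to 9 motifs: AP-1 (TGANTCA), the half-site of the cAMP response element (TGACG), FOXO (GTAAACA), ETS (CCGGAAG), the GC box (GGGCGG), the E-box (CAGGTG), STAT (TTCNNNGAA), RUNX (TGTGGT) and TCF-LEF (CTTTGAT).
Plcg1, chr2:160731060-160731359, plus strand: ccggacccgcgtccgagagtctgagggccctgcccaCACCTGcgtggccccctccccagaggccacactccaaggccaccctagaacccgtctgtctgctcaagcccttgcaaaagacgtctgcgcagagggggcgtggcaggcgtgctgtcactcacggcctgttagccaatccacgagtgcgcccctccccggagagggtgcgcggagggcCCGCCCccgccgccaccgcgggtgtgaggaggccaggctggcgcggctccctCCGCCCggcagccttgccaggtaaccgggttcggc
Dgkz, chr2:91963514-91963813, minus strand: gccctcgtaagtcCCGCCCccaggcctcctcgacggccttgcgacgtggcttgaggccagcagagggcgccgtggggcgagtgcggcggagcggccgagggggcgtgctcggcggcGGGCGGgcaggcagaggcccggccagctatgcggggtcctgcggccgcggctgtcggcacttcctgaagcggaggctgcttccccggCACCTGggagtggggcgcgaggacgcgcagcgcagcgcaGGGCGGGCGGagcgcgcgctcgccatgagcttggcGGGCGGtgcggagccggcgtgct
Sos1, chr17:80480404-80480703, minus strand: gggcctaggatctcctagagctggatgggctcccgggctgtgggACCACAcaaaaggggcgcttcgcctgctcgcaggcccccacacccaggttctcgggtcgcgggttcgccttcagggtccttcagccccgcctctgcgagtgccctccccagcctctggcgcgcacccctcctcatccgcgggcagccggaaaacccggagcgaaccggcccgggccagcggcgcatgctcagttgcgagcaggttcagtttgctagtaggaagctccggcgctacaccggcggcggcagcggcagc
Tagap, chr17:7925750-7926049, plus strand: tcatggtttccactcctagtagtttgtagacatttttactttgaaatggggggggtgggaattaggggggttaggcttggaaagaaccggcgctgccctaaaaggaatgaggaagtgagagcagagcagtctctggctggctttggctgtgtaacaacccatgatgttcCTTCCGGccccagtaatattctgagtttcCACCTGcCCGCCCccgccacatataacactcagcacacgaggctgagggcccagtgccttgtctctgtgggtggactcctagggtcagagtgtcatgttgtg
Positions count from 1 at the start of transcription, with -1 just before it, and give the match's first base. The Plcg1 window held an E-box at position -214 from the start and GC boxes at -37 and 16. The Dgkz window held 5 GC boxes, a pair of which overlap at -8 and -4, and an E-box at -47. Sos1 held only a RUNX match, at -206, and Tagap held an ETS match at -81, an E-box at -52 and a GC box at -45. No match overlapped one to another motif. Of 32851 promoter windows, 35.7% held a GC box, 20.2% an E-box, 16.8% the RUNX letters and 8.86% the ETS letters. The letters of AP-1 (7.81% of windows), FOXO (3.65%), STAT (8.30%), TCF-LEF (3.73%) and the cAMP half-site (20.8%) were not in these 4 windows. A match is a description of letters and not of binding.

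Plcg1 encodes the phospholipase that makes diacylglycerol below the receptor. The gene (ENSMUSG00000016933; chromosome 2, plus strand, 160731300 to 160775760 of mm10, the build of all positions given) was at 520, 503 and 521 CPM in mLN replicates 1, 2 and 3, against 353, 371 and 362 CPM in spleen replicates 1, 2 and 3. Every mLN library was above every spleen library, and the gap was many times the spread within an organ. The log2 fold change was 0.51 with a standard error of 0.0555 (adjusted p = 7.2e-07, edgeR). Ranges of the 3 and 3 libraries did not overlap for 41.8% of all genes tested (21.5% higher and 20.3% lower in mLN), so a lack of overlap alone is common in this comparison. The call held in each of the 21 alternatives run, with log2 fold changes between 0.46 and 0.72.

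Its relative Plcg2, the main phospholipase C gamma of B cells and myeloid cells, was nearly absent, at 1.38 ± 0.766 CPM in mLN and 4.11 ± 1.24 CPM in spleen (SD, n = 3 each). It fell by 1.53 on the log2 scale (adjusted p = 0.0118, edgeR; 0.0836 without spleen replicate 1). B cell and myeloid markers moved the same way, as given above, and their part in this value was not tested. The G-protein-coupled phospholipases Plcb2 and Plcb3 rose 1.26-fold and 1.59-fold. Plcb3 was low, at 12.9 ± 1.56 CPM in mLN and 8.08 ± 1.25 CPM in spleen. The call of Plcb3 was lost without mLN replicate 2 or spleen replicate 1 (adjusted p = 0.0709 and 0.0658, edgeR) and on TPM, and that of Plcb2 on median-centred TPM (0.136, limma).

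Of the 2 diacylglycerol kinases, Dgkz rose and Dgka did not pass the test. Dgkz (ENSMUSG00000040479; chromosome 2, minus strand, 91932824 to 91975864) was at 414, 422 and 506 CPM in mLN replicates 1, 2 and 3, and at 307, 331 and 362 CPM in spleen replicates 1, 2 and 3. Replicate 3 was highest in both organs, and the organs did not overlap. On the log2 scale the rise was 0.42 (standard error 0.0763, adjusted p = 0.000315, edgeR). With a per-library trend of level on transcript GC content removed it was 0.26, with an adjusted p of 1.19e-05 (edgeR).

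Dgka (ENSMUSG00000025357; chromosome 10, minus strand, 128720134 to 128744855) was at 1469, 1460 and 1466 CPM in mLN replicates 1, 2 and 3, against 1479, 1478 and 1456 CPM in spleen replicates 1, 2 and 3. The organs overlapped, and the replicates lay close together. Its log2 fold change was -0.01 with a standard error of 0.0504 and a 95% interval from -0.11 to 0.10 (adjusted p = 0.949, edgeR). On log2(TPM + 1) the difference was 0.26 and passed the test (adjusted p = 0.00485, limma), close to the shift of 0.21 of all genes. Once each library was centred on its median it was 0.01 and did not pass (adjusted p = 0.887, limma). Within a library the TPM ratio of Dgkz to Dgka was 0.333, 0.305 and 0.343 in mLN replicates 1, 2 and 3, and 0.233, 0.245 and 0.278 in spleen replicates 1, 2 and 3. Every mLN ratio was higher than every spleen ratio, a difference of 0.38 on the log2 scale, larger than the SD within each organ of 0.0892 and 0.132.

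Among the other kinases, Dgkd, at 450 ± 19.8 CPM in mLN and 341 ± 6.59 CPM in spleen (SD, n = 3 each), rose 1.32-fold (log2 standard error 0.0574), and Dgke, at 39.7 ± 2.51 CPM in mLN and 29.9 ± 1.88 CPM in spleen, rose by the same 1.32-fold. Dgkh and Dgkq had log2 fold changes of 0.34 and 0.30 with adjusted p-values of 0.0702 and 0.0527 (edgeR), and the other 4 kinases listed were at or near 0 counts. Cds2, which turns phosphatidic acid into the precursor of new inositol phospholipids, rose 1.24-fold. With the trend of level on transcript length removed the log2 fold changes of Cds2 and Dgke were 0.06 and 0.21 and the calls were lost (adjusted p = 0.458 and 0.181, edgeR). The list these genes come from holds enzymes that make or remove diacylglycerol, and also Cds2, which acts on phosphatidic acid instead. Of the 10 tested genes of this list, 5 rose, Cds2 among them, and 1 fell, beside 16.1% higher and 13.5% lower over all genes. The list's median log2 fold change was 0.32, against -0.01 over all genes tested. On median-centred TPM 1 was higher and 1 lower, beside 6.39% and 7.58% of all genes.

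The transcript lengths RSEM assigned add a limit to the TPM of Dgkz and Malt1. RSEM's length of a gene is a mean over its transcripts weighted by their estimated abundance. For Dgkz it was 2424, 2692 and 2832 nt in mLN replicates 1, 2 and 3, and 2542, 2601 and 2550 nt in spleen replicates 1, 2 and 3, all below the shortest of its 3 protein-coding transcripts in GENCODE vM21, at 3512 nt, where its 10 other transcripts run from 412 to 3512 nt. The release behind the files may differ, since they list 14 Dgkz transcripts and vM21 lists 13. For Malt1 the length was 4894 nt in spleen replicate 3, against 4073 and 3904 nt in spleen replicates 1 and 2 and 4121, 4049 and 4194 nt in mLN replicates 1, 2 and 3. Its TPM in spleen replicate 3, at 40.6, was lower than the 53.8 and 53.1 of the other spleen libraries, while its CPM there, at 158, was close to their 171 and 163.

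Rasgrp1 encodes the diacylglycerol-bound exchange factor that starts Ras activation in T cells. The gene (ENSMUSG00000027347; chromosome 2, minus strand, 117279993 to 117343001) was at 529, 527 and 481 CPM in mLN replicates 1, 2 and 3, and at 561, 548 and 521 CPM in spleen replicates 1, 2 and 3. The ranges overlapped through spleen replicate 3, but the mLN library was the lower one in each of the 3 same-numbered pairs. The log2 fold change was -0.09 with a standard error of 0.0585 and a 95% interval from -0.21 to 0.04 (adjusted p = 0.303, edgeR; 0.0604 with the replicate number as a block). Its mean transcript length was 4895 to 5016 nt. With the trend on length removed it fell by 0.24 on the log2 scale and passed the test (adjusted p = 0.00243, edgeR).

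Sos1 (ENSMUSG00000024241; chromosome 17, minus strand, 80393751 to 80480453) encodes the exchange factor that the adaptor Grb2 brings to Ras. It was at 67.6, 70.8 and 73.4 CPM in mLN replicates 1, 2 and 3, against 54.0, 54.4 and 57 CPM in spleen replicates 1, 2 and 3. The organs did not overlap. On the log2 scale it rose by 0.36 (standard error 0.0844, adjusted p = 0.00265, edgeR). Sos1 has the longest transcripts of the 9 genes, between 7448 and 8116 nt, and with the length trend removed its log2 fold change was 0.11 and the call was lost (adjusted p = 0.405, edgeR). On median-centred log2(TPM + 1) it was 0.34 and not called (adjusted p = 0.138, limma), and with the GC trend removed it was 0.54 (adjusted p = 3.34e-06, edgeR).

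The Ras exchange factors differed in level far more than in their change between organs. The TPM ratio of Rasgrp1 to Sos1 was 12.9, 12.3 and 9.90 in mLN replicates 1, 2 and 3, and 17.6, 16.4 and 15.1 in spleen replicates 1, 2 and 3. Every mLN ratio was lower than every spleen ratio. Rasgrp2, an exchange factor of the related GTPase Rap1, had a higher TPM than Rasgrp1, at 778 ± 59.9 in mLN and 515 ± 56.8 in spleen (SD, n = 3 each), and its counts rose 1.29-fold (adjusted p = 0.00057, edgeR). Sos2, the second Son of sevenless gene, rose 1.35-fold and Grb2 1.27-fold, but on median-centred log2(TPM + 1) neither passed, at 0.44 for Sos2 (adjusted p = 0.150, limma) and -0.02 for Grb2. Uncentred, Grb2 did not pass either, at 0.23 (adjusted p = 0.318, limma). RSEM's length of Grb2, on which its TPM depends, varied between libraries. It was 2707, 2708 and 2433 nt in mLN replicates 1, 2 and 3, and 1786, 2619 and 1896 nt in spleen replicates 1, 2 and 3.

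Of 31 tested genes of Ras, its regulators and the ERK cascade, 8 rose (25.8%) and 2 fell (6.45%), with a median of 0.16. Among all genes tested 16.1% were higher and 13.5% lower. Rasal3 and Rasa3, which encode GTPase-activating proteins of Ras and Rap, rose 1.46-fold and 1.32-fold, to 1094 ± 103 and 585 ± 23.8 CPM in mLN, against 751 ± 88.5 and 442 ± 10.9 CPM in spleen (SD, n = 3 each). Spred2, an inhibitor of the ERK cascade, rose 1.59-fold, and Ptpn11, the phosphatase SHP2, rose 1.27-fold. The call of Ptpn11 was lost with the length trend removed (0.18 on the log2 scale, adjusted p = 0.109, edgeR) and on median-centred TPM (0.33, adjusted p = 0.122, limma). The GTPase-activating protein genes Rasa1 and Rasa2 and the inhibitor gene Spred1 had log2 fold changes of 0.14, 0.21 and 0.40 and did not pass. Rras2, a Ras relative that binds the resting T cell receptor, was at 0.746 of its spleen level, and Rap1a, a Rap1 gene, at 0.822 of its own, the call of Rras2 being lost on uncentred TPM (adjusted p = 0.270, limma). The Ras genes Hras and Nras had log2 fold changes of 0.0045 and -0.06, and the kinase genes Braf, Araf, Map2k1 and Mapk3 between -0.22 and 0.12, none past the threshold, while Map2k2 rose 1.27-fold. With the replicate number as a block 13 of the 31 rose (41.9%) and 2 fell, where 20.6% of all genes were higher and 17.1% lower. With the GC trend removed 14 rose and 2 fell, where 21.1% of all genes were higher and 11.8% lower. On median-centred TPM 3 were higher and 1 lower, beside 6.39% and 7.58% of all genes.

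Prkcq (ENSMUSG00000026778; chromosome 2, plus strand, 11172108 to 11301222), the gene of protein kinase C theta, was at 426, 425 and 404 CPM in mLN replicates 1, 2 and 3, and at 446, 435 and 415 CPM in spleen replicates 1, 2 and 3. The organs overlapped, and replicate 3 was lowest in both. As for Rasgrp1, the mLN library was the lower one in each same-numbered pair. The log2 fold change was -0.05 with a standard error of 0.0570 and a 95% interval from -0.16 to 0.07 (adjusted p = 0.603, edgeR). It was 0.25 on log2(TPM + 1), where it passed the test (adjusted p = 0.0306, limma), close to the shift of all genes. With the medians centred it was 0.00044 and did not pass (adjusted p = 0.997, limma). Within a library the TPM ratio of Prkcq to Plcg1 was 0.831, 0.892 and 0.817 in mLN replicates 1, 2 and 3, against 1.23, 1.23 and 1.06 in spleen replicates 1, 2 and 3, so Plcg1 had the higher TPM in every mLN library and the lower in every spleen library.

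Several other kinases that respond to diacylglycerol rose while Prkcq did not pass. Prkch, protein kinase C eta, which acts with theta in T cells, was at 310, 308 and 302 CPM in mLN replicates 1, 2 and 3, and at 198, 196 and 215 CPM in spleen replicates 1, 2 and 3. This was a 1.51-fold rise without overlap (log2 standard error 0.0615, adjusted p = 3.56e-07, edgeR). Prkd2, a protein kinase D phosphorylated by protein kinase C, rose 1.30-fold, Prkca and Prkcd 1.33-fold each, and Unc13d, a vesicle priming factor, 1.28-fold. The call of Prkca was lost with the length trend removed (0.23 on the log2 scale, adjusted p = 0.0690, edgeR) and on TPM (adjusted p = 0.104 uncentred and 0.330 median-centred, limma). Those of Prkcd and Unc13d were lost on median-centred TPM (adjusted p = 0.0644 and 0.186, limma). RSEM's length of Prkca, on which its TPM depends, varied widely. It was 7179, 5548 and 3938 nt in mLN replicates 1, 2 and 3, and 4163, 6455 and 6271 nt in spleen replicates 1, 2 and 3. Of 14 tested genes of the effector list 8 rose (57.1%) and 0 fell, where 16.1% of all genes were higher and 13.5% lower. The median was 0.34. The list is wider than proteins that bind diacylglycerol, and the 8 include Unc13d and the atypical kinase gene Prkci (adjusted p = 0.00642, edgeR). Prkce and Prkd3 had log2 fold changes of 0.32 and -0.09 and did not pass. With the length trend removed 7 were higher and 1 lower, beside 14.4% and 9.19% of all genes. On median-centred TPM 3 were higher and 0 lower, beside 6.39% and 7.58%. Rasgrp3, the exchange factor of B cells, was nearly absent, at 0.395 CPM in mLN and 1.28 CPM in spleen.

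Bcl10 and Malt1 encode proteins that assemble into filaments together, MALT1 being a protease as well as an adaptor. Bcl10 (ENSMUSG00000028191; chromosome 3, plus strand, 145922804 to 145934356) was at 50.6, 58.6 and 50.1 CPM in mLN replicates 1, 2 and 3, and at 52.3, 45.2 and 52.5 CPM in spleen replicates 1, 2 and 3. The organs overlapped, with replicate 2 the highest mLN library and the lowest spleen library. The log2 fold change was 0.09 with a standard error of 0.10 and a 95% interval from -0.12 to 0.30 (adjusted p = 0.568, edgeR).

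Malt1 (ENSMUSG00000032688) was at 182, 172 and 168 CPM in mLN replicates 1, 2 and 3, against 171, 163 and 158 CPM in spleen replicates 1, 2 and 3. The ranges overlapped. The log2 fold change was 0.09 with a standard error of 0.0677 and a 95% interval from -0.05 to 0.23 (adjusted p = 0.376, edgeR). With the GC trend removed it was 0.29 and passed the test (adjusted p = 7.47e-05, edgeR), and with the length trend removed it was -0.01. The TPM ratio of Bcl10 to Malt1 was 0.670, 0.786 and 0.743 in mLN replicates 1, 2 and 3, and 0.697, 0.604 and 0.998 in spleen replicates 1, 2 and 3, overlapping widely, with the highest ratio in the spleen library of the long Malt1 estimate.

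Among partners of the complex of BCL10 and MALT1 and activators and inhibitors of the NF-kB kinases, 13 of 28 tested genes rose and 0 fell. The list's median was 0.17, and over all genes tested 16.1% were higher and 13.5% lower. Rnf31, the catalytic subunit of the linear ubiquitin ligase, rose 1.47-fold, its partner Rbck1 1.21-fold, and Traf3, an adaptor that restrains the alternative NF-kB pathway, 1.46-fold. Tnfaip3, the ubiquitin-editing inhibitor A20, rose 1.36-fold and its binding partner Tnip1 1.28-fold, and Csnk1a1, a casein kinase of this complex, rose 1.20-fold. The call of Rnf31 was lost on log2(TPM + 1), both uncentred (0.35, adjusted p = 0.310, limma) and with the medians centred (0.11, adjusted p = 0.797, limma). RSEM's length of Rnf31, on which its TPM depends, was 3717, 2199 and 2274 nt in spleen replicates 1, 2 and 3. In mLN replicates 1, 2 and 3 it was 3686, 3705 and 3242 nt. The ligase Traf6 and the kinase subunits Chuk and Ikbkg had log2 fold changes of -0.02, 0.04 and -0.08 and did not pass, and Ikbkb rose 1.15-fold. The deubiquitinases Cyld and Otulin, the ubiquitin-conjugating enzyme Ube2n and the adaptor Traf2 had log2 fold changes of 0.03, -0.10, -0.07 and 0.06 and did not pass either. With the replicate block 14 rose and 2 fell, beside 20.6% higher and 17.1% lower over all genes in that fit. Without mLN replicate 1, 10 rose and 2 fell, and without spleen replicate 2, 7 rose and 0 fell. On median-centred TPM 5 were higher and 1 lower, beside 6.39% and 7.58% of all genes.

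Among 9 genes whose proteins MALT1 is known to cut, 4 rose and 0 fell, with a median of 0.24. Over all genes tested 16.1% were higher and 13.5% lower. Of the 9, 3 also stand among the partners above. Nfkbid, an atypical inhibitor of NF-kB, was at 34.4 ± 2.25 CPM in mLN and 23.7 ± 3.44 CPM in spleen (SD, n = 3 each), and Relb, an NF-kB subunit, at 33.8 ± 7.20 and 24.1 ± 2.20 CPM in mLN and spleen. The call of Relb was lost without mLN replicate 3 (adjusted p = 0.138) or spleen replicate 1 or 2 (0.0577 and 0.0530, edgeR), and that of Rbck1 without the same 3 libraries (0.0551, 0.0600 and 0.0641). Both were also lost with the GC trend removed (0.0602 for Relb and 0.225 for Rbck1) and on median-centred TPM. Without spleen replicate 1 or 2, or on median-centred TPM, 2 genes of the list were higher. In the median-centred TPM test 6.39% of all genes were higher. Rc3h1, Rc3h2 and Zc3h12a, which encode RNA-binding repressors of T cell activation, had log2 fold changes of 0.18, 0.14 and 0.24, none past the threshold.

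Tagap, a GTPase-activating protein gene that rises when T cells are activated, was called as lower. The gene (ENSMUSG00000033450; chromosome 17, plus strand, 7926000 to 7934897) was at 68.9, 85.5 and 81.4 CPM in mLN replicates 1, 2 and 3, and at 107, 111 and 122 CPM in spleen replicates 1, 2 and 3. Every mLN library was below every spleen library. Tagap fell by 0.53 on the log2 scale, with a standard error of 0.0902 (adjusted p = 0.000131, edgeR). With the GC trend removed the log2 fold change was -0.34 (adjusted p = 0.00412, edgeR). On log2(TPM + 1) it was -0.26, with an adjusted p of 0.129 in limma's test, against a shift of 0.21 of all genes in the other direction; with the medians centred it was -0.51 (adjusted p = 0.0227).

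Part of Tagap cannot be told from its paralog Tagap1 on the same chromosome. Of the 2977 windows of 100 nt along the 3076 nt Tagap transcript, 949 (31.9%) also occur in the 2312 nt Tagap1 transcript, where they make up 42.9% of windows, so the division of reads between them is RSEM's estimate. Tagap1 was at 37.9, 36.1 and 40.1 CPM in mLN replicates 1, 2 and 3, against 51.3, 47.7 and 41.0 CPM in spleen replicates 1, 2 and 3, at 0.817 of its spleen level. Its call (adjusted p = 0.0457, edgeR) was lost without mLN replicate 1 or 2 or spleen replicate 1 or 2 (0.107, 0.144, 0.194 and 0.120) and, among other settings, with the length or GC trend removed and in limma-voom. Counted as 1 gene, a choice made after seeing the data, the pair had a log2 fold change of -0.45 (adjusted p = 7.27e-05, edgeR).

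The cytoskeletal GTPases and their regulators, the list nearest to Tagap, went both ways, with 11 of 27 higher, 5 lower and a median of 0.09. Over all genes tested 16.1% were higher and 13.5% lower. Arhgap15, a GTPase-activating protein of Rac, Arhgdib, which holds such GTPases in the cytosol of blood cells, and Cdc42 were at 0.667, 0.729 and 0.739 of their spleen levels. Dock8 and Arhgef2, exchange factors of Cdc42 and RhoA, rose 1.41-fold and 1.38-fold, and Vav1, the exchange factor below the T cell receptor, rose 1.28-fold. Rhoa and Rac2 had log2 fold changes of 0.07 and -0.11 and did not pass. The calls of Arhgap15 and Cdc42 were lost on uncentred TPM (adjusted p = 0.0596 and 0.159, limma) and held with the medians centred. With the GC trend removed their log2 fold changes were -0.37 and -0.23, smaller than the -0.58 and -0.44 of the counts. On uncentred TPM 1 gene of the list was lower, beside 3.08% of all genes.

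**Figure D3:**
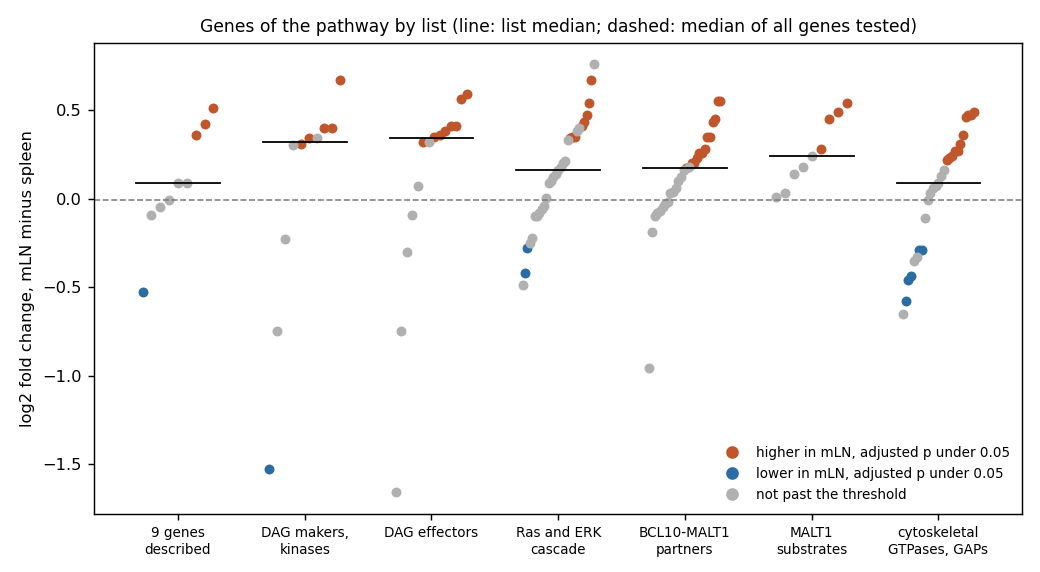
Log2 fold change (mLN minus spleen) of every tested gene in the 9 described and in 6 lists of neighbouring genes, coloured by direction where the adjusted p was under 0.05, with the median of each list and of all genes tested (dashed). All list medians lie above the median of all genes, from 0.09 to 0.34.

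Over the 6 lists together, leaving out the 9 genes, 47 of 116 tested genes rose (40.5%) and 8 fell (6.90%), with a median of 0.18, beside 16.1% higher and 13.5% lower and a median of -0.01 over all genes. The lists were chosen with earlier results of these data known, so these shares are a description only. These genes had a median transcript length of 2817 nt, against 2330 nt over all genes, and 3411 nt for the 9. With the length trend removed 39 rose and 9 fell, with a median of 0.12, beside 14.4% higher and 9.19% lower over all genes. With the GC trend removed 57 rose and 9 fell, beside 21.1% and 11.8%. On median-centred TPM 21 were higher and 7 lower, beside 6.39% and 7.58%. Of the 9 genes, 2 were higher and 2 lower with the length trend removed, beside 23.5% of all genes in either direction. With the GC trend removed 4 of the 9 were higher and 1 lower, beside 32.9%, and on median-centred TPM 2 were higher and 1 lower, beside 14.0%.

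**Figure D4:**
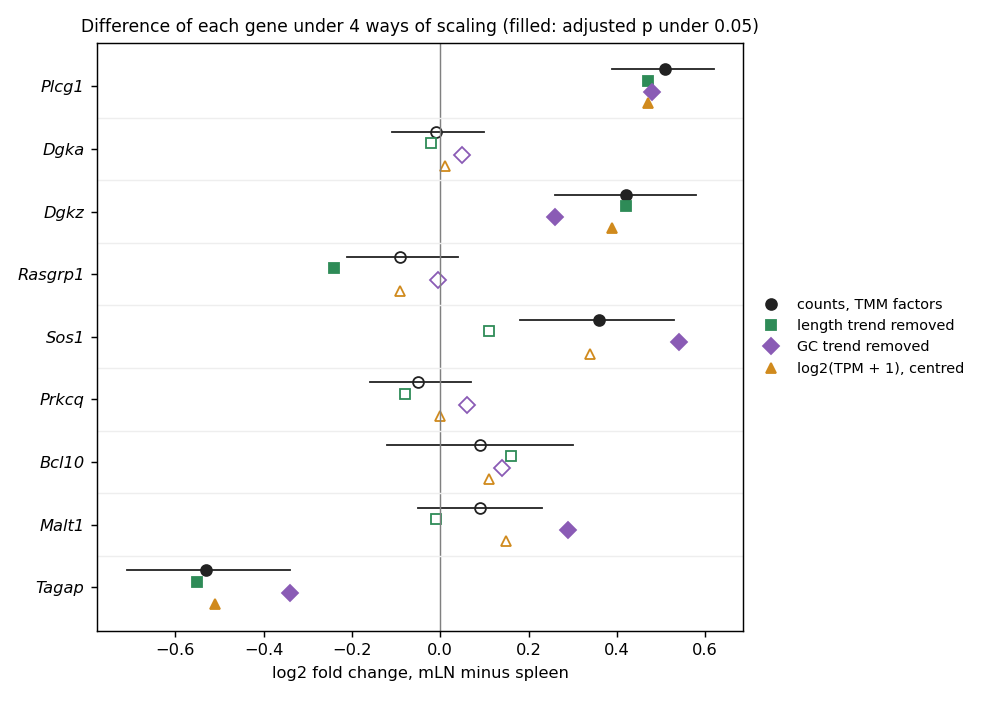
Log2 fold change (mLN minus spleen) of the 9 genes from counts with TMM factors (with its 95% interval), after a trend on transcript length or on GC content was removed, and on median-centred log2(TPM + 1); filled symbols passed an adjusted p of 0.05. Plcg1, Dgkz and Tagap are filled in all 4, Sos1 in 2, and Rasgrp1 and Malt1 in 1 each.

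Ratios within a library do not depend on its scaling. Of the ratios, 6 did not overlap between organs, each with an exact two-sided permutation p of 0.1 (adjusted p = 0.133 over 8 ratios), which is the smallest p that 3 against 3 libraries allow. All of these except Dgka to Rasgrp1 hold a gene called above, so in part they restate its call. Ranges of single genes did not overlap for 41.8% of all genes tested, and the share over other gene pairs was not computed. The TPM of Dgkz relative to Rasgrp1 was 1.70, 1.57 and 1.95 in mLN replicates 1, 2 and 3, against 1.12, 1.23 and 1.41 in spleen replicates 1, 2 and 3, a difference of 0.48 on the log2 scale. That of Dgka relative to Rasgrp1 was 5.11, 5.16 and 5.68 in mLN replicates 1, 2 and 3, against 4.79, 4.99 and 5.06 in spleen replicates 1, 2 and 3, a difference of 0.10 that is close to the SD within mLN, 0.0847. The kinases were thus higher relative to the exchange factor in every mLN library, by little for Dgka. The ratio of Tagap to Rasgrp1 was lower in mLN, at 0.218, 0.274 and 0.286 in mLN replicates 1, 2 and 3, against 0.314, 0.341 and 0.386 in spleen replicates 1, 2 and 3. With the length trend removed the differences of Dgkz and Dgka relative to Rasgrp1 were 0.66 and 0.22.

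**Figure D5:**
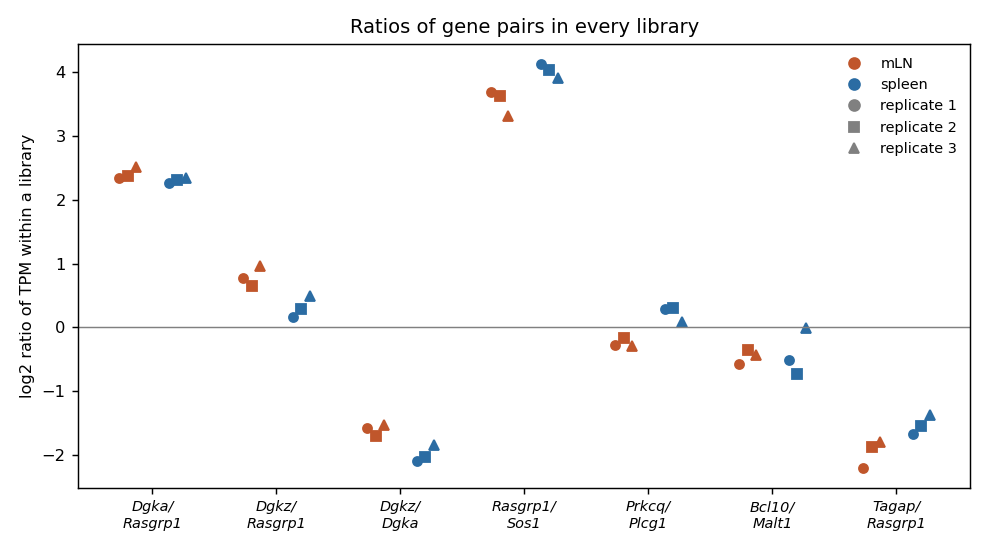
Log2 ratio of the TPM of 2 genes within each of 3 mLN and 3 spleen libraries, for 7 pairs. The ratio of Bcl10 to Malt1 overlaps between organs and the other 6 do not.

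The genes whose levels ran most like those of the called genes were found by the root mean square difference of log2 CPM, centred on each gene's mean, over 6 libraries and 8706 protein-coding genes. Nearest to Plcg1 were Dock8 (0.0212), the endocytic receptor gene Ly75 (0.0245) and the chromatin repressor gene Gatad2b (0.0264), which were 1.41-fold, 1.45-fold and 1.41-fold higher in mLN. Nearest to Dgkz were Nbeal2 (0.0214), the zinc finger gene Maz (0.0237) and the adhesion receptor gene Adgrl1 (0.0254), at 1.34-fold, 1.30-fold and 1.34-fold. Nearest to Tagap, at larger differences, were Srp9 (0.0520), a part of the signal recognition particle, Yipf1 (0.0551) and Vps45 (0.0568), a factor of vesicle fusion, at 0.711, 0.720 and 0.728 of their spleen levels.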

How the data were processed

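RNA sequencing of 6 libraries was used, 3 from mLN and 3 from spleen. Per the labels' protocols, libraries were made with a directional kit from polyadenylated RNA. STAR, RSEM and mm10 are named in the submitters' processing notes, without versions. For the annotation release and the strand setting the sources used here give nothing. The deposited expected counts come from RSEM and carry no normalization. The deposited TPM values are levels per effective length with 1 total for all libraries. FPKM values, also deposited by the authors, were not used. The deposited transcript lengths are in nucleotides, per the file headers.

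Expected counts were rounded, filtered with edgeR's filterByExpr and scaled by TMM factors. Genes were tested, two-sided, with edgeR's quasi-likelihood F test, with tissue as the only term and Benjamini-Hochberg adjustment over 12486 genes. Standard errors were derived as the log2 fold change divided by the root of the F value. Symbols for 55141 of 55487 identifiers, positions and GC content came from GENCODE vM21 (GRCm38, named mm10). A floor of 3 counts corresponds to 0.15 to 0.227 CPM, for counting error only. TPM was tested with limma on log2(TPM + 1).

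The 9 genes, the 6 lists of neighbouring genes and the marker lists were chosen with earlier results of these data known. Genes named beside the 9 are the called genes of each list, up to 6, ranked by p, and close relatives (Tagap1, Prkch, Sos2, Grb2, Plcg2 and Rasgrp2), and others of the lists were chosen after their values were seen. Some genes of the lists, and 1 of the 8 ratios, are not reported here. For the 3 of the 9 with the smallest p, the 3 nearest genes with a mean of at least 5 CPM are named. Same-numbered mLN and spleen libraries deviated together from their group means (correlations of 0.211, 0.130 and 0.238 over 9367 genes, against -0.218 to 0.0183 for other pairings). The same-numbered libraries thus shared some variation, but the labels do not say what the numbers mark, and its source was not tested. The main test and the permutation test of ratios did not use the numbers, and the replicate block did. Replicates of an organ differed by more than sampling noise (chi-square per degree of freedom 5.60 to 11.9).

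Alternatives were DESeq2, limma-voom, upper-quartile and RLE factors, log2 TPM with pseudocounts of 1 and 0.1 and with medians centred, no filter and a filter of 5 CPM in 3 libraries, the replicate block, removal of a loess trend (span 0.3) on transcript length or GC content, a table without ribosomal protein, rRNA and mitochondrial genes, a threshold of 0.01 and fits with 1 library fewer. On simulated counts for this comparison (12486 genes, 3 and 3 libraries, 50 changed genes per size) the test recovered 62% of the genes changed 1.4-fold and 96% of those changed 2-fold, and called 11 unchanged genes. The changed genes were drawn from those above 5 CPM and were far fewer than the 3699 genes called in the data, so recovery in the data may differ. Software was edgeR 4.0.16 with limma 3.58.1 in R 4.3.3, DESeq2 1.42.0, Python 3.11.15, numpy 2.4.6, pandas 2.3.3, scipy 1.17.1 and matplotlib 3.10.9.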

Additional observations from a re-analysis of the deposited data

How the results depend on the processing

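The calls of Plcg1 and Dgkz held in all 21 alternatives, with log2 fold changes (mLN minus spleen) of 0.46 to 0.72 and 0.26 to 0.64. With other factors, filters or count tools, at the stricter threshold and without any 1 library, 3 of the 9 genes were higher and 1 lower. On TPM 5 were higher and 0 lower with a pseudocount of 1, and 6 and 0 with 0.1. The differences of Prkcq and Dgka turned to 0.25 and 0.26 with either pseudocount and passed the test. These values were near the shifts of all genes of 0.21 and 0.24. With the length trend removed, with or without the replicate block, 2 were lower, and with the GC trend removed 4 were higher. Over all genes 384 and 389 were lower on log2 TPM with pseudocounts of 1 and 0.1, 798 were higher and 947 lower with the medians centred, and 1069 were lower at a threshold of 0.01. Of the 116 neighbouring genes 2 and 3 were lower on log2 TPM with the same pseudocounts, 21 higher with the medians centred, 14 lower with the length trend removed and the replicate block, and 5 (without spleen replicate 1) to 9 lower with a library left out. With the replicate block alone, 2566 genes were higher and 2140 lower, 3 and 1 of the 9, no call of the 9 changed, and no count in the report moved by over 1.5 times other than those given there with the block. The causes were not tested. At this depth the lists hold genes near 0 counts that could not be tested.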
